A study of Mus musculus with 16 samples.

Results

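The arrays described here were host-containing tissue arrays that differed in hair keratin signal. Keratin-high arrays were those with a normalized log2 signal over 10 for all of Krt27, Krt33a and Krt71, and 4 of the 16 arrays of the series met this rule: control array 6, day 4 array 1, day 14 array 3 and day 14 array 4. They were set against 9 keratin-low arrays, namely control arrays 1, 2, 3, 4, 5 and 7, day 4 arrays 2 and 3 and day 14 array 1. The other 3 arrays, day 4 array 4 and day 14 arrays 2 and 5, were left out, so 13 of 16 arrays were described over 9448 named genes. Because measured keratin signals formed the groups, every difference between them is a description with no test.

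The series profiled total RNA of C57BL/6 mice aged 8 weeks on Illumina bead arrays, each giving 1 signal per probe. Control tissue had 7 arrays, tumor microenvironment 4 days after inoculation of B16, a pigmented melanoma cell line of C57BL/6 origin, had 4, and the same at 14 days had 5. All arrays share the strain and age, no other allele or agent is labelled, and the labels do not say which tissue the controls were, where the graft lay, whether RNA was pooled, or whether arrays came from separate mice. The spread between arrays may therefore be partly technical.

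The 13 arrays carried the markers of skin and the tissue under it. The median log2 signal of 9 basal epidermis genes lay between 9.26 and 12.43 on them, against 4.64 to 5.62 on the 3 arrays left out. The 23 skeletal muscle genes lay between 8.53 and 13.58, against 4.62 to 4.71. The 21 fibroblast matrix genes lay between 9.29 and 11.63, against 4.55 to 4.73. For scale, the dimmest detected probe on each of the 13 arrays had a signal of 4.88 to 5.27. The 17 pigment cell genes did not divide the arrays by label. Of the 7 arrays labelled control, 6 had a median between 10.13 and 12.20 and control array 1 had one of 5.30, against 11.53 to 12.13 on the 3 arrays left out. In bulk RNA, fewer cells of a type and less RNA per cell cannot be told apart.

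A hair follicle passes through growth (anagen), regression (catagen) and rest (telogen). Only a growing follicle has a matrix of dividing cells above the dermal papilla, and that matrix gives rise to the hair shaft and to the inner root sheath that moulds it. Inner root sheath cells make their own keratins, among them Krt27, Krt28 and Krt71, and harden them with trichohyalin and peptidylarginine deiminases. The shaft cortex makes hair keratins such as Krt33a. Pigment cells in the bulb of a growing black hair pass melanin to the shaft, and a resting follicle keeps its stem cells in the bulge.

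The promoter windows shown are those of 3 inner root sheath keratins that were higher on the keratin-high arrays. Krt27 and Krt71 belong to the rule, so their separation and their shared arrays follow from it. Krt28 was not used by the rule. Each line holds the 250 bases before the RefSeq start in GRCm38.p6, read 5′ to 3′ on the gene's strand, which is the minus strand for all 3. Krt27 lies at chr11:99351119-99351368, Krt28 at chr11:99374904-99375153 and Krt71 at chr15:101743098-101743347. Capitals mark TATAAA, the TATA box, and TAATT, a core bound by homeodomain proteins such as Dlx3 and Msx1, both searched on either strand.
Krt27: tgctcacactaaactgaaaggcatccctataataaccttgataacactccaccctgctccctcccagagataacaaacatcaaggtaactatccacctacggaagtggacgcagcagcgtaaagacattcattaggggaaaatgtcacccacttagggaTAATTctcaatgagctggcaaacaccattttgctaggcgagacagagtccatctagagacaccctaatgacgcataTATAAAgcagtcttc
Krt28: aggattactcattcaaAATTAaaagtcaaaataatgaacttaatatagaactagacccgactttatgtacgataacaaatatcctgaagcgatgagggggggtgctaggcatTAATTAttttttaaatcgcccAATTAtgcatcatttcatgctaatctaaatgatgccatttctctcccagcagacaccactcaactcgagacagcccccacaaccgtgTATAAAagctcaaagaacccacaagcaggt
Krt71: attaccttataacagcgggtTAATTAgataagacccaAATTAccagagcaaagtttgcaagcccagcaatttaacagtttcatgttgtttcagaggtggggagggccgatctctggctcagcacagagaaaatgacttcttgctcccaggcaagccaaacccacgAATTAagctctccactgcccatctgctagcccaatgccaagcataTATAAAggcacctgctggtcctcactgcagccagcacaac
TATAAA stood 15 bases before the start in Krt27, 30 in Krt28 and 40 in Krt71, counted from the motif's first base. TAATT had 1 match in Krt27, 4 in Krt28 and 4 in Krt71, where TAATTA holds a match on each strand and was counted 2 times. Among all 32851 windows of the same length, 12.4% held TATAAA and 25.03% held TAATT. For the 9448 genes measured, 7608 of which matched by symbol with 9831 windows, the shares were 6.78% and 15.8%. Among 88 windows of 76 genes that were higher in the keratin-high arrays, 7 (7.95%) held TATAAA and 16 (18.2%) held TAATT. Among 326 windows of 246 genes that were lower, 41 (12.6%) held TATAAA and 51 (15.6%) held TAATT. A match is a run of letters and no measured binding site.

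The rule keratins left a wide empty range between the groups. Signals below are normalized log2 values, given for control array 6, day 4 array 1, day 14 array 3 and day 14 array 4 in that order. Krt71, a type II keratin of the inner root sheath, had signals of 14.35, 13.64, 13.54 and 14.64, and the 9 keratin-low arrays ran from 4.39 to 7.89 with a median of 4.54. Krt27, a type I partner in the same sheath, had 14.18, 13.91, 13.97 and 14.48, against 4.56 to 9.12 with a median of 4.86. Krt33a, a hair keratin of the shaft cortex, had 13.60, 12.57, 12.54 and 14.35, against 4.91 to 7.46 with a median of 5.10. The highest signals of all 3 keratins were on day 14 array 4. The array nearest to the threshold from below was control array 4, with 9.12 for Krt27, 7.46 for Krt33a and 7.89 for Krt71. It was followed by day 4 array 3, which had 8.27 for Krt27 and 7.66 for Krt71 but 5.19 for Krt33a. Krt27 and Krt71 were each detected on 4 of the 9 keratin-low arrays and Krt33a on 7. The lowest value inside the rule was 12.54, and thresholds of 9 or 11 selected the same 4 arrays. On the 3 arrays left out, Krt27 was between 4.35 and 6.72, Krt33a between 5.74 and 6.10 and Krt71 between 4.33 and 6.29.

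**Figure D1:**
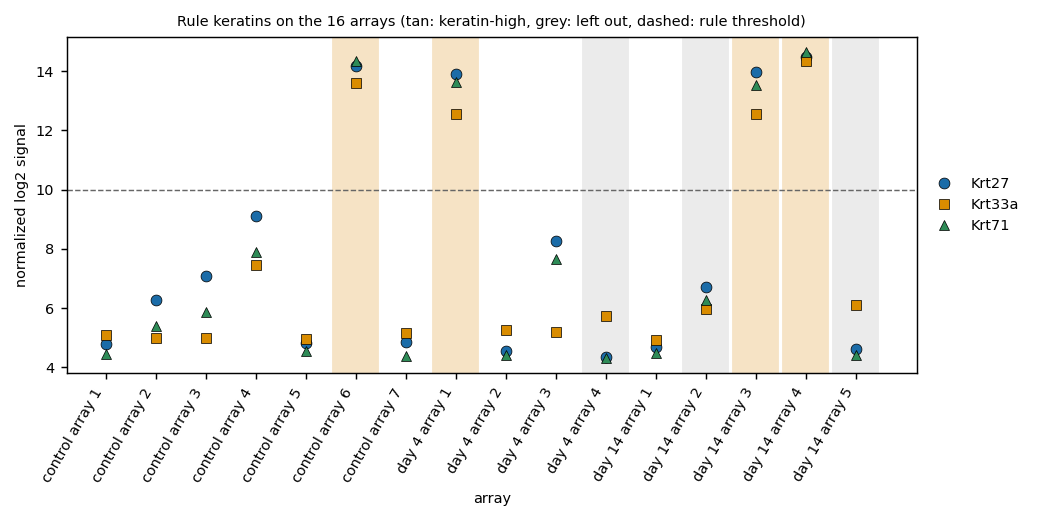
Normalized log2 signal (y axis) of Krt27, Krt33a and Krt71 on each of the 16 arrays (x axis), 1 point per gene and array, with the rule's threshold of 10 as a dashed line. The 4 keratin-high arrays lie between 12.54 and 14.64, and no other array exceeds 9.12.

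The labels were not used by the rule, so their split could be tested. Keratin-high arrays were 1 of 7 controls and 3 of 6 tumor arrays, the latter made up of 1 of 3 at day 4 and 2 of 3 at day 14. Fisher's exact test, two-sided, gave p = 0.266, and the smallest p possible with these numbers was 0.021. Counting the 3 arrays left out as not keratin-high gave 1 of 7 against 3 of 9 (p = 0.585, Fisher's exact test). A p of this size does not show that the labels had equal shares.

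The 4 keratin-high arrays were not equally alike. Across the 9448 genes, which are not independent replicates, control array 6 and day 4 array 1 were each other's most similar array, with a Pearson correlation of 0.980, although one is labelled control and the other tumor. Day 14 array 3 was most similar to day 4 array 1 (0.935). Day 14 array 4 was most similar to a keratin-low array, day 4 array 2 (0.938), and had a mean correlation of 0.846 with the other keratin-high arrays and 0.919 with the keratin-low arrays. The keratin-high arrays detected 18468 to 19530 probes and the keratin-low arrays 20045 to 21669, so the groups did not overlap in the number of detected probes either. Whether this bears on the differences below was not tested.

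A gene was called higher or lower where the 4 and the 9 arrays did not overlap and the group medians were at least 2-fold apart, which is 1 on the log2 scale. By this rule 92 of 9448 genes (0.974%) were higher in the keratin-high arrays and 326 (3.45%) were lower. With no fold threshold, 335 genes (3.55%) were higher without overlap and 488 (5.17%) lower. Since the keratin signals chose the arrays, nothing is read from these shares. For list members below, counts without overlap are counts of called genes. The lists were written with earlier results of these data known, so the shares of called genes beside them are for scale. The median log2 difference was 1.40 over the 92 higher genes and -1.67 over the 326 lower ones, with 0.04 over all genes. At least 4-fold apart were 25 of the higher and 110 of the lower genes. The extremes were 9.45 for Krt71 and -4.10 for Aadacl4, which is named for that value.

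How many genes were called depended on day 14 array 4. Without it the counts were 708 higher and 969 lower, with 89 of the 92 and 323 of the 326 still among them. Without day 14 array 3 they were 143 and 428. Among the 92 higher genes, day 14 array 4 was the highest keratin-high array for 42 and the lowest for 38. Among the 326 lower genes it was the keratin-high array nearest to the keratin-low arrays for 244. In the deposited value table, which is on another scale, 43 genes were higher and 210 lower, 42 and 210 of them shared. Of 80 called genes that were picked for naming, 68 were called there too, and the other 12 still did not overlap but were under 2-fold apart. Their differences in that table are given where each gene is described.

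Of the inner and outer root sheath keratins, 8 of the 14 listed were measured, and Krt71, Krt27 and Krt28 were higher without overlap. Krt71 and Krt27 are rule keratins, so their separation is the choice of arrays itself. Krt28 was the only other member called higher, against 0.974% of all genes. Krt28, the third inner root sheath keratin, had signals of 12.59, 11.99, 11.65 and 13.81, against 5.35 to 8.01 with a median of 6.59 on the keratin-low arrays. The highest signal was again on day 14 array 4, and day 4 array 3 was the highest of the keratin-low arrays. The medians of Krt28 were 51.9-fold apart. For Krt71 and Krt27 the median keratin-low array was not above background, so no fold is given. In the deposited value table the log2 differences were 4.64 for Krt28, 7.08 for Krt71, 7.02 for Krt27 and 5.99 for Krt33a, against 5.70, 9.45, 9.21 and 7.99 here. The keratins of the outer sheath and companion layer overlapped between the groups. Krt17 had 13.88, 13.21, 13.11 and 14.44, against 13.21 to 14.24 with a median of 13.60. Krt6b, a keratin that is also made in stressed epidermis, had 9.38, 8.18, 8.74 and 11.06, against 7.40 to 13.31 with a median of 8.25, and its highest value of all was on control array 1. The log2 differences of medians were 0.78 for Krt75, -1.24 for Krt16 and -1.29 for Krt79, a keratin of the follicle opening and sebaceous duct. The list's median difference, with its rule keratins included, was 0.80. It turned to -0.06 over the 5 members detected on all 13 arrays. Of 16 hair shaft keratins 1 was measured, Krt33a itself, and no keratin-associated protein was.

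Of the genes for hair protein crosslinking and adhesion, 12 of 24 were measured and 3 were higher without overlap, against 0.974% of all genes. The list was written with earlier results of these data known, so nothing is read from that share. Tchhl1, a trichohyalin-like protein, had 11.83, 11.07, 10.30 and 13.43, against 4.74 to 6.24 with a median of 4.97. Crym, a thyroid hormone binding protein that the list also holds, had 12.42, 11.91, 11.45 and 13.38, against 5.07 to 6.39 with a median of 6.02. Padi1, a peptidylarginine deiminase that converts arginine to citrulline in sheath proteins, had 10.998, 10.06, 9.59 and 12.32, against 4.47 to 5.87 with a median of 5.35. For each of them the order of the arrays was the same, with day 14 array 4 highest, then control array 6, day 4 array 1 and day 14 array 3. No keratin-low array came within 3.72 log2 units of the lowest keratin-high array. The log2 differences between medians were 6.48, 6.15 and 5.18, and 4.42, 4.77 and 3.45 in the deposited value table. Tchhl1 was detected on 5 of 9 keratin-low arrays, Crym on 9 and Padi1 on 8.

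The other 9 members were not called. Tgm3, a transglutaminase that crosslinks sheath proteins, differed by 1.17 between medians, whereas the epidermal transglutaminase Tgm5 differed by -2.65. Tgm5 had 7.76, 6.83, 6.16 and 9.10, against 8.99 to 10.67 with a median of 9.95, and day 14 array 4 alone reached the range of the keratin-low arrays. Lpar6, a lysophosphatidic acid receptor needed for normal hair, had 10.40, 10.002, 9.68 and 11.35, against 9.48 to 10.22 with a median of 9.85. Lgals7, a galectin of stratified epithelia, had 13.45, 12.60, 12.40 and 14.23, against 13.12 to 14.36 with a median of 14.05. For Tgm5, Lpar6 and Lgals7 the highest of the keratin-high arrays was day 14 array 4. The list's median difference of 0.26 was 0.41 in the controls and -0.22 at day 4, and -0.11 without day 14 array 4 or without control array 6.

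Differences of the measured hair matrix regulators lay on both sides of 0, with 9 above and 12 below. Of 45 listed, 21 were measured, with 4 higher and 1 lower without overlap, against 0.974% and 3.45% of all genes. The 1 lower gene, 4.76% of the 21, is near the share of all genes, so nothing is read from it. Dlx3, a homeobox factor required for hair formation, had 11.94, 10.99, 10.41 and 13.09, against 7.47 to 9.59 with a median of 9.03, a 5.4-fold difference of medians. Msx1, a homeobox factor of the follicle, had 8.36, 7.40, 7.68 and 10.11, against 5.52 to 6.90 with a median of 6.21 (3.51-fold). Day 4 array 1 was the lowest keratin-high array for Msx1 and stood 0.50 above the highest keratin-low array. Dlx1 had 6.80, 6.92, 6.28 and 8.04, against 4.37 to 5.67 with a median of 4.82, and was detected on 2 of the 9 keratin-low arrays. Its log2 difference in the deposited value table was 0.77, under 2-fold. Bmp8a, a bone morphogenetic protein, had 7.98, 6.72, 7.31 and 9.27, against 4.93 to 6.62 with a median of 5.96 (3.22-fold). Its separation rested on a gap of 0.10 between day 4 array 1 and day 4 array 3, and its difference in the deposited value table was 0.88.

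Wnt10a, a Wnt ligand of skin and hair follicles, was the regulator lower in the keratin-high arrays, with 5.57, 5.21, 5.84 and 5.93, against 6.23 to 9.09 with a median of 7.97 (4.81-fold), detected on 3 of the 4. Its related ligand Wnt10b differed by 0.10. Other regulators overlapped. Gata3, which directs inner root sheath fate, had 10.18, 9.48, 9.38 and 12.24, against 9.90 to 11.12 with a median of 10.91, and Cux1, another factor of that sheath, had 10.55, 10.25, 9.70 and 11.59, against 9.23 to 10.03 with a median of 9.83. Hr, the hairless corepressor that the hair cycle requires, had 11.79, 11.11, 11.25 and 13.35, against 12.15 to 12.85 with a median of 12.72. Foxq1, a forkhead factor of the hair medulla, had 11.06, 9.83, 10.38 and 12.60, against 10.13 to 11.17 with a median of 10.99. On day 14 array 4 Gata3, Hr, Foxq1 and Cux1 were all above the highest keratin-low array, which no other keratin-high array was for Gata3, Hr or Foxq1. The list's median difference was -0.05 and was between -0.44 and 0.19 under other settings.

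Outside the lists, 81 of the 92 higher genes remained. The 15 with the widest gap between the lowest keratin-high and the highest keratin-low of the 13 arrays were picked, so their separation is the choice itself, and they are given from the widest gap down. Ly6g6d, a membrane-anchored protein of the Ly6 family, had 10.86, 9.88, 9.61 and 12.07, against 4.39 to 5.27 with a median of 4.95. It was detected on 4 of the 9 keratin-low arrays, and its log2 difference was 5.42, or 3.42 in the deposited value table. Cryba4, a beta crystallin, had 11.33, 10.26, 10.03 and 12.54, against 5.25 to 6.36 with a median of 5.82 (31.5-fold). Psors1c2 had 11.96, 10.95, 10.72 and 12.95, against 4.98 to 8.10 with a median of 7.22 (18.9-fold). Ctse, the aspartic protease cathepsin E, had 10.52, 9.63, 9.22 and 11.62, against 4.64 to 6.60 with a median of 5.39. Ctse was detected on 5 of the 9, and its log2 difference was 4.69. In these 4 genes day 14 array 4 was highest and day 14 array 3 lowest of the keratin-high arrays. Serpina1e, an alpha-1-antitrypsin gene with near-identical copies that its probe may not tell apart, had 7.41, 6.39, 6.40 and 8.30 and was detected on none of the keratin-low arrays. A probe needed detection on 4 of the 13 arrays to be kept, and this one passed through the keratin-high arrays alone. Nothing is therefore read from its separation. By group means Serpina1e was at least 4.45-fold higher, and its log2 difference in the deposited value table was 0.98. Dusp2, a phosphatase of MAP kinases, had 10.36, 10.26, 10.10 and 10.48, against 6.38 to 8.28 with a median of 7.69 (6.14-fold), and varied little among the keratin-high arrays. Scrg1, a small secreted protein, had 7.79, 7.83, 7.67 and 6.98, against 4.65 to 5.33 with a median of 5.14 (5.99-fold). Upp1, the uridine phosphorylase, had 10.35, 9.80, 10.26 and 10.95, against 6.73 to 8.16 with a median of 7.71 (6.06-fold).

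The gaps of the other 7 genes were narrower. Prss53, a serine protease, had 9.40, 8.45, 8.34 and 11.45, against 5.32 to 6.76 with a median of 5.80 (8.7-fold). Slc7a8, an amino acid transporter, had 9.93, 9.65, 9.42 and 10.35, against 6.37 to 7.98 with a median of 7.49 (4.93-fold). Lrrc15, a leucine-rich repeat membrane protein, had 12.45, 11.45, 10.66 and 13.65, against 7.45 to 9.23 with a median of 7.90 (16.6-fold). All 3 were highest on day 14 array 4. Ass1, which makes argininosuccinate in arginine synthesis, had 10.73, 10.40, 10.20 and 11.65, against 8.08 to 8.93 with a median of 8.57 (3.99-fold). Ephb1, an ephrin receptor, had 7.97, 7.07, 6.84 and 9.30, against 4.84 to 5.79 with a median of 5.01 (5.71-fold). That median is near background too. Ephb1 was detected on 7 of the 9 keratin-low arrays, and its log2 difference in the deposited value table was 1.11. Both Ass1 and Ephb1 were again highest on day 14 array 4. Accs had 8.88, 8.89, 8.76 and 8.95, against 6.52 to 7.97 with a median of 7.52 (2.57-fold). The difference of Accs in the deposited value table was 0.99. Sema7a, a semaphorin, had 8.61, 8.99, 9.60 and 9.10, against 7.09 to 7.85 with a median of 7.74 (2.46-fold). The difference of Sema7a in the deposited value table was 0.98. Of the 15 genes, day 14 array 4 was the highest array in 13 and day 14 array 3 the lowest of the 4 in 11. The order day 14 array 4, control array 6, day 4 array 1, day 14 array 3 held in 10. Day 14 array 4 was the lowest of the 4 for Scrg1.

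**Figure D2:**
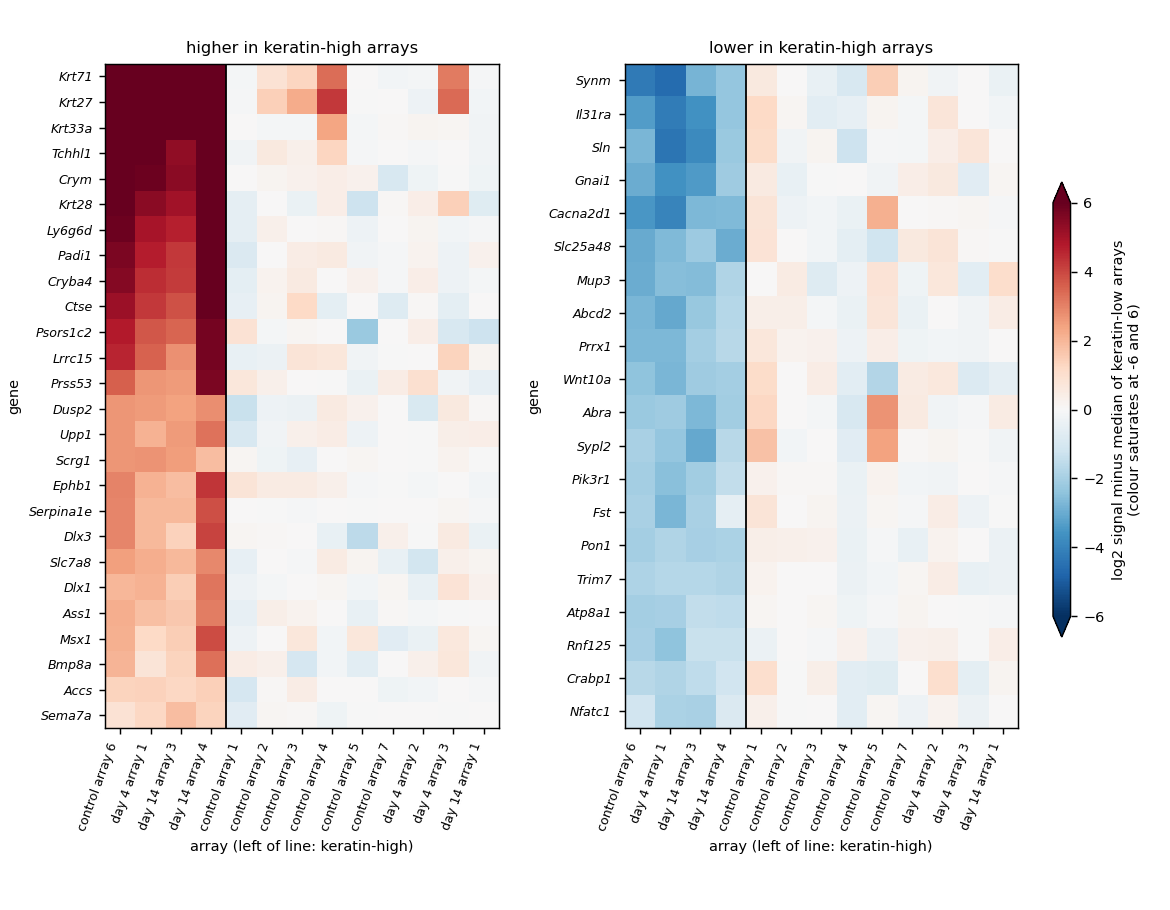
Log2 signal of each gene on each array minus the gene's median over the 9 keratin-low arrays (colour), for genes that did not overlap between groups, from the rule, the hair lists and the widest gaps outside the lists; genes are in lines and the 13 arrays in columns, keratin-high arrays left of the line. Krt27 and Krt71 also stand above the other keratin-low arrays on control array 4 and day 4 array 3, and among the lower genes day 14 array 4 is often the palest of the 4 keratin-high arrays.

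Markers of the resting follicle and its stem cells were lower or overlapped. Of 21 listed, 17 were measured, 3 were lower without overlap, against 3.45% of all genes, and none higher. Il31ra, a receptor subunit for interleukin 31, had 5.68, 4.88, 5.41 and 6.76, against 8.42 to 10.25 with a median of 9.05 (11.4-fold), detected on 3 of the 4. Fst, the activin antagonist follistatin, had 6.91, 6.13, 6.92 and 8.31, against 8.50 to 9.62 with a median of 8.87 (3.88-fold). Nfatc1, a factor that keeps bulge stem cells quiescent, had 8.78, 8.04, 8.01 and 9.07, against 9.28 to 10.22 with a median of 9.93 (2.87-fold). Day 14 array 4 was the highest of the 4 in each, and its Fst signal was 0.19 under the lowest keratin-low array. Krt15, a bulge keratin, had 11.04, 9.96, 10.36 and 12.78, against 12.69 to 13.72 with a median of 12.91, and overlapped through day 14 array 4. Cd34, a surface marker of bulge cells, differed by -1.27 and Lgr5, a marker of cycling follicle stem cells, by -1.19. The members above 0 included Dkk3 with 1.23, Lhx2 with 0.48 and Tcf7l1 with 0.18. The median over the 17 was -0.81.

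Dermal papilla markers, which belong to the mesenchymal signalling centre under the matrix, had a median difference of -0.74 over 15 measured of 23, with 14 below 0. Crabp1, a cytosolic retinoic acid binding protein, was the 1 member called lower (6.67%), against 3.45% of all genes, and nothing is read from that count. Igfbp3 did not overlap either but was under 2-fold apart. Crabp1 had 4.72, 4.62, 4.90 and 5.25, against 5.66 to 7.43 with a median of 6.40. It was detected on 1 of the 4 keratin-high arrays, and its log2 difference in the deposited value table was -0.56, under 2-fold. Fgf7, a keratinocyte growth factor, had 6.83, 7.14, 6.78 and 8.21, against 8.16 to 9.23 with a median of 8.46. It overlapped by day 14 array 4 alone. Bmp4 had 8.74, 7.45, 7.14 and 10.14, against 8.27 to 9.70 with a median of 9.15, and Itga9, an integrin subunit, was the member with a difference above 0, 0.43.

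Pigment cell genes divided the keratin-high arrays themselves. The median log2 signal of the 17 measured genes was 12.20, 12.46, 12.30 and 9.26 in the order above, against 5.30 to 11.56 on the keratin-low arrays. On 3 keratin-high arrays it was therefore above every keratin-low array, and on day 14 array 4 it was below all of them but control array 1. Mlana, a melanosome protein, had 14.50, 14.31, 14.15 and 10.55, against 4.62 to 13.54 with a median of 12.74. Tyrp1, a melanin-making enzyme, had 13.40, 13.56, 12.81 and 10.40, against 5.30 to 13.24 with a median of 12.85, and Sox10, a transcription factor of melanocytes and Schwann cells, had 12.62, 13.07, 13.07 and 8.69, against 7.59 to 12.23 with a median of 11.80. No pigment gene was called, against 0.974% of all genes higher and 3.45% lower, so nothing is read from that. The median difference was 1.09 over the list, with 16 of 17 above 0, and 1.09 in the controls, 2.14 at day 4 and -0.69 at day 14. B16 cells and follicle pigment cells share these genes, and their parts in the signal were not tested.

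Cell cycle genes followed the same division of arrays. Their median was 10.56, 10.68, 10.79 and 9.04 over 22 genes, against 8.77 to 10.37. Differences of medians were above 0 for all 22, with a list median of 0.82. None of the 22 was called, with 0.974% of all genes called higher, so nothing is read from that. Mcm6, part of the replicative helicase, had 11.45, 11.69, 10.98 and 9.82, against 9.87 to 10.99 with a median of 10.52. Mcm5, of the same helicase, had 11.04, 11.07, 11.35 and 10.09, against 10.15 to 11.24 with a median of 10.59. Within the controls the list's median difference was 0.96, at day 4 it was 1.19 and at day 14 it was 0.01.

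Skeletal muscle held the most members that were lower without overlap, 17 of 23 measured against 3.45% of all genes, with all 23 differences below 0 and a median of -2.28. The list's median signal was 9.64, 9.18, 8.53 and 10.34, against 10.88 to 13.58, so the groups did not overlap. Ttn, the giant sarcomere spring titin, had 10.15, 9.52, 8.30 and 11.26, against 11.54 to 14.10 with a median of 12.64 (6.97-fold). Des, the muscle intermediate filament desmin, had 8.86, 8.51, 8.53 and 10.29, against 11.07 to 13.05 with a median of 11.74 (8.28-fold). Myh4, a fast myosin heavy chain, had 6.57, 6.61, 5.23 and 8.31, against 8.48 to 12.50 with a median of 9.65 (8.36-fold). Control array 5 had the highest Ttn and Myh4 signals and day 14 array 3 the lowest. Ckm, muscle creatine kinase, had 10.52, 9.91, 9.67 and 11.45, against 11.53 to 14.32 with a median of 12.50 (4.86-fold). Neb, the thin filament ruler nebulin, was detected on none of the keratin-high arrays and on all 9 others. Neb is among the 17, although its probe passed the detection filter through the keratin-low arrays alone. Nothing is therefore read from its separation. On those 9 it ran from 6.39 to 10.38 with a median of 7.55. By group means it was at least 6.42-fold lower in the keratin-high arrays. The other 12 muscle genes called were 2.33-fold (Eno3) to 6.44-fold (Mybpc2) lower. Acta1, skeletal actin, had 13.07, 12.39, 12.23 and 13.57, against 13.82 to 14.40 with a median of 14.18.

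Genes outside the lists with the widest downward gaps included muscle genes as well. Cacna2d1, a calcium channel subunit, had 4.79, 4.35, 5.58 and 5.63, against 7.87 to 10.44 with a median of 8.29, detected on 2 of the 4, and Synm, the intermediate filament protein synemin, had 6.56, 6.20, 8.04 and 8.49, against 9.86 to 12.32 with a median of 10.82 (11.5-fold). Sln, the sarcolipin that regulates the muscle calcium pump, had 8.52, 6.88, 7.47 and 9.04, against 10.02 to 12.37 with a median of 11.28 (9.75-fold). Abra and Sypl2, both of striated muscle, differed by -2.18 and -2.14 on the log2 scale. Control array 5 had the highest signal of the 13 arrays for Cacna2d1, Synm, Abra and Sypl2. Gnai1, an inhibitory G protein subunit, had 6.82, 6.18, 6.43 and 7.68, against 9.13 to 10.37 with a median of 9.80 (9.07-fold). Prrx1, a homeobox factor of mesenchyme, had 6.27, 6.29, 6.95 and 7.32, against 8.67 to 9.64 with a median of 8.97 (5.11-fold). Pik3r1, a regulatory subunit of phosphoinositide 3-kinase, had 9.89, 9.43, 9.85 and 10.46, against 11.53 to 12.21 with a median of 11.93 (4.18-fold). The highest of the keratin-high arrays for Gnai1, Prrx1 and Pik3r1 was day 14 array 4. Further members were Slc25a48, Mup3, Abcd2, Atp8a1 and Rnf125, with log2 differences of -2.81, -2.57, -2.51, -1.75 and -1.67. Of the 4 keratin-high arrays, Slc25a48 was detected on 1, Mup3 on 2 and Rnf125 on 3. In the deposited value table the differences of Slc25a48, Mup3 and Rnf125 were -1.20, -1.20 and -0.76, the last under 2-fold. Mup3 belongs to a family of near-identical genes that its probe may not tell apart. Pon1, a paraoxonase, and Trim7, a ubiquitin ligase, were detected on none of the keratin-high arrays. Both passed the detection filter through the keratin-low arrays alone, so nothing is read from their separation. By group means they were at least 2.48-fold and 1.98-fold lower. Their differences in the deposited value table were -0.71 and -0.64.

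Fat, sebaceous and blood vessel markers were lower in part. Of 13 adipocyte genes measured 4 were lower without overlap, of 16 sebaceous genes 1 and of 12 endothelial genes 3, against 3.45% of all genes. The 1 sebaceous gene, 6.25% of the 16, is near the share of all genes, so nothing is read from that count. Pparg, the master regulator of fat cells, had 8.63, 8.02, 8.76 and 9.21, against 9.52 to 10.69 with a median of 10.38 (3.21-fold). Pnpla2, a triglyceride lipase, had 10.55, 10.33, 11.20 and 10.92, against 11.56 to 12.85 with a median of 12.28 (2.91-fold). Adig and Plin1, the latter a lipid droplet coat protein, differed by -1.66 and -1.28, and Plin1, detected on 1 of the 4 keratin-high arrays, by -0.42 in the deposited value table. Adipoq, the hormone adiponectin, had 9.05, 9.001, 10.64 and 11.23, against 11.11 to 12.76 with a median of 12.24, and overlapped by day 14 array 4 alone. The sebaceous gland gene was Scd1, a fatty acid desaturase, with 12.27, 12.05, 12.46 and 13.43, against 13.46 to 14.20 with a median of 13.90 (2.9-fold). The endothelial genes were Plvap, lower by 2.32-fold, Ramp2 by 2.35-fold and Vwf, the von Willebrand factor, by 2.4-fold. Vwf had 8.17, 7.48, 8.25 and 8.63, against 8.92 to 9.99 with a median of 9.47. The endothelial list's median signal, 8.68, 8.82, 8.80 and 8.76, lay below that of every keratin-low array, 9.02 to 9.94.

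The epidermis between follicles was represented by 29 suprabasal genes, and all 29 differences were below 0 with a median of -1.79. None of the 29 was called, against 3.45% of all genes lower, so nothing is read from that count. The list's median signal was 10.55, 9.25, 8.70 and 11.76, against 10.72 to 13.09. Day 14 array 4 lay inside the range of the keratin-low arrays, whose lowest was control array 5. Krt1, a keratin of the layers above the basal one, differed by -4.75, and its partner Krt10 had 14.22, 13.73, 13.50 and 14.59, against 14.26 to 14.62 with a median of 14.44. Of 9 basal genes 1, Dst, a hemidesmosome linker, was lower without overlap, against 3.45% of all genes, with 10.49, 9.26, 9.86 and 11.72, against 11.95 to 13.04 with a median of 12.39 (4.66-fold). Krt5 and Krt14, the basal keratin pair, differed by -1.62 and -0.43. Fibroblast matrix genes were below 0 in 21 of 21, with a median of -1.003. Only 1 of the 21 was called lower (4.76%), near the 3.45% of all genes, so nothing is read from that count. It was Lum, the collagen-binding proteoglycan lumican, with 11.38, 10.54, 10.63 and 12.54, against 12.77 to 13.86 with a median of 12.98 (3.93-fold).

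Clock genes were lower in all 13 measured members by their medians, and 4 were called, against 3.45% of all genes. Per3, a period protein of the feedback loop, had 4.73, 5.26, 5.31 and 6.92, against 7.69 to 8.40 with a median of 8.25, and was detected on 2 of the 4 keratin-high arrays. Dbp, a clock output factor, had 10.81, 10.57, 11.09 and 12.000, against 12.09 to 12.98 with a median of 12.55 (3.04-fold). Rora, a nuclear receptor of the loop, had 9.75, 9.65, 9.43 and 10.53, against 10.80 to 11.85 with a median of 11.33 (3.1-fold), and Ciart, a repressor, had 6.60, 6.56, 6.63 and 7.37, against 7.50 to 8.85 with a median of 8.14 (2.87-fold). The difference of Ciart in the deposited value table was -0.93. For all 4, day 14 array 4 was the keratin-high array nearest to the others. The list's median difference was -0.66, and -0.98 in the controls, -1.33 at day 4 and -0.52 at day 14. The labels give no time of day of sampling, and its part was not tested.

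Immune markers separated the arrays in few genes. Cd207, the langerin of Langerhans cells, was the 1 of 11 dendritic and Langerhans cell genes called (9.09%), against 3.45% of all genes lower. It had 7.18, 6.27, 6.46 and 7.87, against 8.08 to 9.90 with a median of 9.72 (7.47-fold). Of 20 macrophage genes Mrc1, the mannose receptor, and Itgam, an integrin subunit, were lower by 2.15-fold and 2.07-fold (-0.40 on the log2 scale for Itgam in the deposited value table), against 3.45% of all genes, and the list's median difference was -0.40. The abundant macrophage genes overlapped, C1qb with 12.60, 12.38, 12.45 and 12.51, against 11.999 to 12.88 with a median of 12.50. Of 13 T cell genes none was called, against 0.974% of all genes higher and 3.45% lower, and nothing is read from that. Their differences were above 0 in 11, and the list median was 0.58. Foxp3, the factor of regulatory T cells, had 9.85, 9.96, 10.07 and 9.55, against 9.08 to 9.51 with a median of 9.30, which did not overlap but were under 2-fold apart. Of 19 interferon-stimulated genes none was called, and nothing is read from that either. Gbp2, an interferon-induced GTPase, had 12.96, 12.87, 11.96 and 10.77, against 10.94 to 11.77 with a median of 11.40, with day 14 array 4 under every keratin-low array. The chemokines Cxcl9 and Cxcl10 had differences of 2.90 and 2.96, and overlapped. Median differences were -0.85 over 7 mast cell genes, -0.55 over 17 immediate early and heat shock genes and 0.51 over the interferon list. They changed sign with the setting over 6 neutrophil genes (-0.34, from -1.30 to 0.29), 7 Schwann cell genes (-0.20, from -0.47 to 0.37) and 11 dendritic cell genes (-0.34, from -0.55 to 0.05).

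The difference between the groups was present within controls and within tumor arrays, which share no array. Control array 6 against the other 6 controls gave log2 differences of 9.38 for Krt71, 6.19 for Crym, 2.86 for Dlx3, -3.38 for Il31ra and -2.81 for Neb. Day 4 array 1 against day 4 arrays 2 and 3 gave 7.61, 6.02, 1.70, -4.54 and -3.37. Day 14 arrays 3 and 4 against day 14 array 1 gave 9.60, 6.67, 3.14, -2.80 and -3.28. The sign was the same in each label for these genes, as the requirement that groups do not overlap fixes it. Neb also passed the detection filter through the keratin-low arrays alone. Over all 9448 genes, the differences in controls and in tumor arrays had a Pearson correlation of 0.826 and a Spearman correlation of 0.785, and 79.5% had the same sign. These values are across genes, which vary together, and the arrays were chosen by keratin signal in both labels. The skeletal muscle median was -1.89 in controls, -2.67 at day 4 and -1.95 at day 14, while the bulge and telogen median was -0.48, -1.20 and -0.02. The suprabasal median was -1.46, -2.24 and -1.19.

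**Figure D3:**
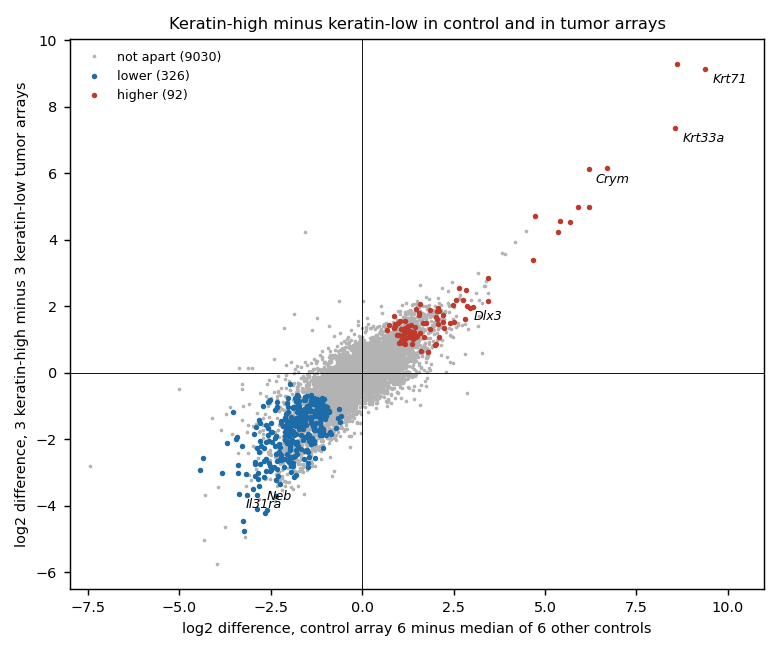
Each point is 1 of 9448 genes, with its log2 difference between control array 6 and the median of the other 6 controls on the x axis and that between 3 keratin-high and 3 keratin-low tumor arrays on the y axis; red and blue points are the 92 higher and 326 lower genes. The upper right tail holds the rule keratins and Crym, and also genes outside the hair lists such as Ly6g6d and Cryba4. The Pearson correlation over all genes was 0.826.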

How the data were processed

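Total RNA of 16 tissue samples was hybridised to Illumina bead arrays, 1 array per sample. Per the file headers, the deposited scanner table pairs each probe's signal on an array with a detection p-value. These deposited intensity values are linear and, from their range (lowest 83.9, array medians 105 to 155), not background-subtracted. The sources used here do not name the software. From data line 23 on, the deposited detection p-values stood 2441 lines below their signals. Once realigned, signal and p ran in opposite order with 0 reversals (Spearman correlation -0.993 to -0.970, against -0.00437 to 0.00667 as printed).

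The neqc function of limma 3.58.1 (R 4.3.3) was run on all 16 arrays: normexp background correction informed by detection p, an offset of 16, quantile normalization and log2. Probes needed a detection p under 0.05 on 4 or more of the 13 arrays, and the brightest probe stood for each symbol, which left 9448 of 9453 named genes. The deposited value table of log2 values, made by the authors in a way the sources do not give, has array medians of 8.51 to 8.57, has the scanner signals' order of probes on each array (Spearman correlation 1) and served as an alternative. Symbols come from the platform annotation of 16247 probes, of which 14836 have 1 symbol, 5 several and 1406 none. Gene IDs gave current symbols for 14830. Promoter windows come from RefSeq.

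No gene was tested between keratin-high and keratin-low arrays, since their signals chose the groups. Group differences are differences of medians, and a fold is 2 to that power. Where a probe was detected on no array of a group, the fold is a lower bound from group means and not medians. For it, each undetected array was raised at least to its dimmest detected probe. Where it was missed on at least as many arrays of a group as it was detected on, no fold is given. Named genes were the rule keratins, the called members of the hair lists and up to 4 bright others of each, called members and up to 4 bright genes of the other lists, and the 15 widest gaps each way outside the lists. Genes named beyond these, such as Tgm3, Krt1, Cxcl9, Cd34, Lgr5 and Wnt10b, were chosen after their values were seen. Members and lists were chosen with earlier results of these data known. The labels split was tested with Fisher's exact test (scipy 1.17.1, Python 3.11.15). Alternatives covered normalization, background, filter, probe choice, fold, centre, membership and leaving out each array. The number of arrays limits the precision, and the sources used here name no slide.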

Additional observations from a re-analysis of the deposited data

Results flagged for a closer look

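In each named gene and list median, the highest and lowest array of the 4 keratin-high and of the 9 keratin-low arrays was checked for a gap to its neighbour that is large for the group's range (Dixon's 95% criterion). Of 366 groups of values 38 met it. The criterion's rate of about 1 in 20 holds for independent, normal values. Genes on the same arrays vary together and many were picked for group gaps, so no excess is read from this count.

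Of these, 9 fell on day 14 array 4. It was the lowest keratin-high array for Dct (12.83), Mlana (10.55), Sox10 (8.69), Mbp (8.996), the pigment list median (9.26) and the cell cycle list median (9.04), and the highest for Ciart (7.37), Dnajb1 (12.04) and the mast cell list median (9.26). For Kit, the lowest of the 4 was day 14 array 3 (8.65).

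Control array 1 accounted for 10. Pigment and neural crest genes were lowest there, with Gpnmb at 10.04, Dct at 8.19, Mlana at 4.62, Tyrp1 at 5.30, Sox10 at 7.59 and the pigment list median at 5.30. Accs (6.52) and Sema7a (7.09) were lowest there too, and Krt6b (13.31) and Fgf7 (9.23) were highest.

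Control array 5 accounted for 11. It was lowest for epidermal and sebaceous genes, with Lgals7 at 13.12, Dlx3 at 7.47, Dmkn at 13.83, Asprv1 at 12.43, Elovl4 at 12.11, Fa2h at 12.01, Cd207 at 8.08, the suprabasal list median at 10.72 and the sebaceous list median at 9.36. It was highest for the muscle gene Mybpc2 (13.10) and for Cacna2d1 (10.44).

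The remaining values were single ones among the keratin-low arrays. Krt33a was highest on control array 4 (7.46). Crym (5.07) and Ifit3 (9.96) were lowest on control array 7. Plvap (11.33) and Ctse (6.60) were highest on control array 3, and Scd1 (13.46) and Pparg (9.52) were lowest on day 4 array 3.

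For 3 genes, control array 6 stood above the median of the other controls while each of the 3 keratin-high tumor arrays stood below the median of the keratin-low tumor arrays. The control and tumor log2 differences were 0.16 and -0.35 for Fcer1g, 0.34 and -0.52 for Cd74, and 0.0508 and -0.56 for H2-Eb1. The difference between labels was not tested.

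Probes without a gene name here were counted apart. Of 8034 detected ones, 160 (1.99%) were higher in the keratin-high arrays by the rule used for genes and 133 (1.66%) were lower. The widest gaps belonged to ILMN_2648153 and ILMN_2937333 among the higher and ILMN_1233336 and ILMN_2568397 among the lower. ILMN_2648153 had log2 signals of 13.21, 12.14, 12.22 and 13.87 on control array 6, day 4 array 1, day 14 array 3 and day 14 array 4, and at most 5.90 on the keratin-low arrays, where control array 4 was highest.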

How the results depend on the processing

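No paired analysis was possible because the keratin groups were compared without a test and the label split is a table of array counts with no pairs. Counts of genes higher and lower, 92 and 326 as reported, were 43 and 210 in the deposited value table, 42 and 205 with quantile normalization and no background correction, 25 and 110 at 4-fold, and 335 higher with no fold threshold (488 lower). They were 43 and 18 with the 3 arrays left out added to the keratin-low arrays, 844 and 1220 in controls alone and 161 and 590 in tumor arrays alone, where fewer arrays make it easier not to overlap. Leaving out 1 array in turn gave 91 to 708 higher and 307 to 969 lower. The extremes of 708 and 969 came without day 14 array 4, and without day 14 array 3 there were 143 higher. Leaving out day 14 array 4 and control array 1 together, chosen after seeing the data, gave 670 and 959. The median of the root sheath list turned to -0.0582 over genes detected on all 13 arrays. That of the crosslinking list turned to -0.4146 over those genes, -0.4178 with every probe, -0.1052 without control array 6 or without day 14 array 4, and -0.0091 without day 14 array 4 and control array 1, and reached 0.4888 without day 4 array 1. The cause was not tested. Of the values of named genes under these settings, 3619 moved by less than the spread between arrays and 194 by more. Of the list medians 584 moved by less and 9 by more. Another 6 changed sign in lists whose medians did not overlap between the groups. These counts include the signal thresholds of 9 and 11, which chose the same 4 arrays, so no value could move under them. The sign changed under 1 setting for the root sheath list, 5 for crosslinking, 4 for matrix regulators, 1 for dendritic cells, 2 for neutrophils and 8 for Schwann cells. The number of arrays, 4 against 9, limits what can be seen, as does detection on few keratin-low arrays for Krt27, Krt71 and Ly6g6d.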

Other observations

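Some gene families, picked by symbol after the values were seen, stood higher in the keratin-high arrays by small amounts. Of 36 proteasome subunits measured, 31 had a median difference above 0 and 8 did not overlap between the groups (Psmb7, Psmb3, Psmb6, Psmd13, Psmc5, Psme3, Psmc1 and Psmb5), with a family median of 0.34 on the log2 scale. Of 5 subunits of eIF2B, the exchange factor that recycles initiation factor 2 in translation, 4 did not overlap (Eif2b2, Eif2b3, Eif2b4 and Eif2b5) and the median difference was 0.77. Of 67 mitochondrial ribosomal proteins 60 were above 0, with a median of 0.35 and 2 without overlap (Mrpl54 and Mrps18b). Over all genes 3.55% were higher without overlap and the median difference was 0.04. Cytosolic ribosomal proteins had a median of 0.03 over 15 measured, with 1 higher and 1 lower without overlap. No test was made of any family, and the families were chosen for how they stood.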
